A study of Rattus norvegicus with 24 samples.

Results

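Cholesterol and fatty acid synthesis was followed in whole rat brain through 9 genes: the sterol synthesis enzymes Hmgcs1, Fdft1, Sqle, Lss, Msmo1 and Dhcr7, the fatty acid synthase Fasn, and the regulators Insig1 and Srebf1. Members were all probe sets whose platform gene symbol is one of these names. This gave 17 probe sets for 8 genes, of 8799 probe sets on the array and 4737 genes with a probe set of their own name, and all 17 passed the filter on low values, as did 7389 of the whole table. No probe set was named Hmgcs1 in the annotation used here, so that gene has no value below. Of the others, Fdft1 had 4 probe sets, Lss 3, Sqle and Srebf1 1 each, and Msmo1, Dhcr7, Fasn and Insig1 2 each. Where a gene had several, the probe set with the highest mean signal stands for it, and the rest are given beside it.

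Total RNA was measured on 24 single-colour oligonucleotide arrays, 1 per sample. Rats in 4 groups of 3 arrays breathed an anaesthetic for 90 min at a time, 2 times a day, with 3 h of recovery: 0.8% halothane for 5 exposures over 2.5 days, 0.8% halothane for 10 exposures over 5 days, 1.0% isoflurane for 5 exposures over 2.5 days, or 1.0% isoflurane for 10 exposures over 5 days. The 12 controls were not free of anaesthetic, since they had halothane for 3 min before perfusion with ice-cold saline. The labels name no strain, sex or age and leave unsaid whether each array stands for its own animal, so the p-values reflect variation among arrays that may be technical in part. In whole brain, fewer cells of a type and less RNA per cell cannot be told apart.

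Brain cholesterol is made almost entirely within the brain, because plasma lipoproteins do not cross the blood-brain barrier, and much of it lies in myelin. The pathway runs from acetyl-CoA through mevalonate to squalene, which is closed to lanosterol and trimmed to cholesterol. SREBP transcription factors, encoded by Srebf1 and Srebf2, switch on its genes when membrane sterol is low, and the Insig proteins hold the SREBP precursors in the endoplasmic reticulum when sterol is plentiful.

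The promoter windows of Lss, Insig1 and Srebf1 are shown because, by their brightest probe sets, these genes had the largest group log2 fold changes against control among the sterol enzymes and regulators; none passed the test. Each is the 250 bases before the RefSeq start in build GRCr8, 5′ to 3′ on the gene's strand, and capitals mark CCAAT (the NF-Y box), GGGCGG (the Sp1 box) and CACGTG (the E-box) on either strand.
Lss, chr20:12118231-12118480, minus strand: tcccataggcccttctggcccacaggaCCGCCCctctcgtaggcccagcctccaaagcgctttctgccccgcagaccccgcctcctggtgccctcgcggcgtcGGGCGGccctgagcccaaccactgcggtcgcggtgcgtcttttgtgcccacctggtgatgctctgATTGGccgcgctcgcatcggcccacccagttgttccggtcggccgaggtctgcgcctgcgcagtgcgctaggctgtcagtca
Insig1, chr4:8057770-8058019, minus strand: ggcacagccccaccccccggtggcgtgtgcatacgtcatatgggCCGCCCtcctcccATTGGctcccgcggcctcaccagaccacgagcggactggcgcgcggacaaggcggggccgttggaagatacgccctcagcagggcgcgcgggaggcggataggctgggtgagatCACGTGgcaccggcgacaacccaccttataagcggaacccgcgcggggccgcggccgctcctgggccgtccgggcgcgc
Srebf1, chr10:45529165-45529414, minus strand: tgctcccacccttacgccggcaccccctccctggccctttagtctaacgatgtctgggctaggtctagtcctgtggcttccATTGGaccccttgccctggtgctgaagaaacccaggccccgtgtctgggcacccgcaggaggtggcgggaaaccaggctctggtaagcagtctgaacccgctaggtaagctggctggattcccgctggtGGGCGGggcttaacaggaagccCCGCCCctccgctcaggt
The table held windows for 6 of the 9 members, 7 windows in all, since Srebf1 has a pair of listed starts. The other Srebf1 window is not shown. CCAAT occurred in 6 of the 7 and in 34.0% of all 33469 windows of the same length. GGGCGG occurred in all 7 and in 30.5% of all windows. CACGTG occurred in the Insig1 window alone among the 7, and in 5.59% of all windows. The relaxed sterol regulatory element TCACNCCAC was in none of the 7, against 0.974% of all windows, and the strict form of that element, whose matches all fall within the relaxed one, was in none of the 7 and in 0.105%. Motifs were searched on both strands, and a match in letters is no evidence of a bound site. With so rare a motif and 7 windows, a missing match is no evidence that a site is absent.

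Signals are the deposited linear intensities. For tests, values under 16.5 were raised to 16.5, log2 was taken, and limma was fitted to all 24 arrays, with p-values adjusted by the Benjamini-Hochberg method over 7389 probe sets. A call is an adjusted p under 0.05. All comparisons with control share the same 12 control arrays. One feature of the arrays has to be stated first. By 9 spike-in probe sets they divided into 9 arrays with a high and 15 with a low level. Between the nearest arrays on either side of the split, the gap in mean log2 spike-in signal was 0.57. Low-level arrays ran from 7.78 to 9.03 and high-level arrays from 9.60 to 10.48. The high level held 5 controls and replicate 3 of every exposed group. No pair of arrays held identical values.

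None of the 17 member probe sets was called in any of the 9 comparisons made. After 10 halothane exposures 0 of 17 were called, beside 0.0406% of all probe sets, and after 5 halothane exposures 0 of 17, beside 0.0135%. In both isoflurane groups 0 of 17 were called, and 0% of all probe sets. At an unadjusted p under 0.05 the members numbered 4 after 10 halothane exposures (7.52% of all probe sets), 0 after 5 halothane exposures (3.53%), 1 after 5 isoflurane exposures (2.14%) and 2 after 10 isoflurane exposures (9.05%). They numbered 2 over the mean of the exposed groups (8.44%), 0 between the agents at 5 exposures (2.98%), 2 between the agents at 10 exposures (3.11%), 0 between 10 and 5 halothane exposures (3.76%) and 1 between 10 and 5 isoflurane exposures (3%).

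No member had all 3 arrays of an exposed group beyond every control. Among all probe sets the share with all arrays below every control was 0.23% after 5 halothane, 0.528% after 10 halothane, 0.0947% after 5 isoflurane and 0.433% after 10 isoflurane exposures. The share above every control was 0.122%, 0.595%, 0.135% and 0.487% in the same order of groups.

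**Figure D1:**
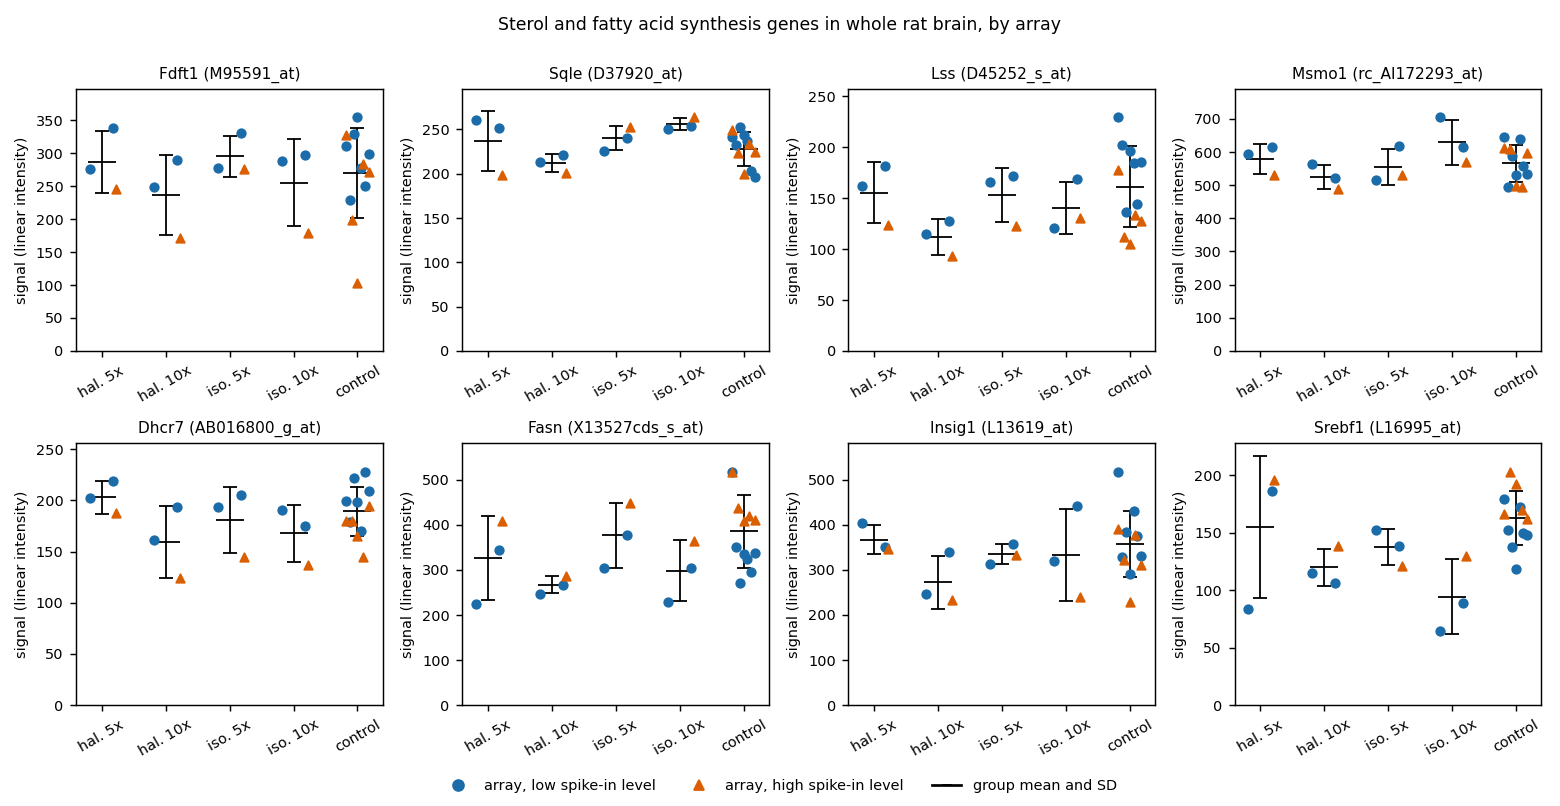
Signal (linear intensity) of the 8 genes on each array, by group, with the group mean and SD; circles are arrays with a low and triangles arrays with a high spike-in level. Every exposed group overlaps the 12 controls in every panel, and Srebf1 after 10 isoflurane exposures lies at 64.7, 88.4 and 129.5, against 117.9 to 203.1 in controls.

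The lowest p among the members belonged to Srebf1, which encodes SREBP-1, the SREBP most tied to fatty acid synthesis. Its signals were 64.7, 88.4 and 129.5 after 10 isoflurane exposures, against a lowest of 117.9, a median of 163.65 and a highest of 203.1 in controls. Both low-level isoflurane arrays lay below every control and the high-level array lay inside the control range, so the groups overlapped. The log2 fold change was -0.83 ± 0.21 (SE, 95% interval -1.26 to -0.40), with an unadjusted p of 5.3e-04 and an adjusted p of 0.26 by limma. Blocking on spike-in level gave -0.80 (adjusted p = 0.14), and on the low-level arrays alone -0.99 (adjusted p = 0.19).

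Srebf1 had signals of 114.9, 106.5 and 137.9 after 10 halothane exposures, 2 of the 3 below every control, with a log2 fold change of -0.43 ± 0.21 and an adjusted p of 0.66. After 5 exposures it had 83.5, 185.9 and 195.4 with halothane and 152.3, 138.1 and 121.2 with isoflurane. The 5-exposure halothane arrays were split, 1 below every control and 2 above the control median. Log2 fold changes were -0.15 ± 0.21 after 5 halothane and -0.24 ± 0.21 after 5 isoflurane exposures. Between 10 and 5 isoflurane exposures the log2 difference was -0.59 ± 0.26, unadjusted p 0.032, adjusted p 1 by limma. Over the mean of the 4 exposed groups Srebf1 stood at -0.41 ± 0.13 (adjusted p = 0.36), where 0 of 17 member probe sets and 0% of all were called.

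Insig1, the sterol-sensing anchor of the SREBP precursors, had signals of 245.7, 339.9 and 232.2 after 10 halothane exposures, against a lowest of 228.4, a median of 352.95 and a highest of 518.1 in controls. All 3 lay below the control median and inside the control range. The log2 fold change was -0.38 ± 0.18, unadjusted p 0.042, adjusted p 0.66 by limma. The second Insig1 probe set had -0.09 ± 0.15 in the same comparison. After 5 isoflurane exposures the probe sets pointed apart, at -0.07 ± 0.18 for the first and 0.44 ± 0.15 for the second, whose unadjusted p was 0.0073 and adjusted p 1. That second probe set had signals of 415, 476.4 and 357.1 after 5 isoflurane exposures, against 213.5 to 382.2 in controls. After 5 halothane exposures the first had 403.3, 350.3 and 345.4, with a log2 fold change of 0.06 ± 0.18, and after 10 isoflurane exposures 318.7, 441.9 and 240, with -0.12 ± 0.18.

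Among the sterol enzymes, Lss had the lowest p. It encodes lanosterol synthase, which closes squalene epoxide into lanosterol. Its signals were 114.8, 127.9 and 92.9 after 10 halothane exposures, against a lowest of 105, a median of 160.65 and a highest of 229.2 in controls. All 3 lay in the lower part of the control range and 1, the high-level array, lay below it. The log2 fold change was -0.50 ± 0.20, unadjusted p 0.022, adjusted p 0.57 by limma, and blocking on spike-in level gave -0.53. One other Lss probe set had -0.27 ± 0.19. The last was at or under the floor of 16.5 on all 3 of these arrays and above it in 6 of 12 controls, so no fold change is read from it.

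Lss had signals of 161.9, 181.3 and 123.2 after 5 halothane exposures and of 165.4, 171.8 and 122.6 after 5 isoflurane exposures. In both groups the high-level array was the lowest. After 10 isoflurane exposures Lss had 120.7, 168.8 and 130.9, a log2 fold change of -0.18 ± 0.20, while its second probe set had 0.21 ± 0.19. The dim one was at or under the floor on 2 of the 3 arrays. The 5-exposure groups differed from control by -0.03 ± 0.20 with halothane and -0.05 ± 0.20 with isoflurane.

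Fdft1 encodes squalene synthase, the first step committed to sterols. Its signals were 248.5, 290.2 and 170.7 after 10 halothane and 288.3, 297.2 and 179.2 after 10 isoflurane exposures, against a lowest of 102.7, a median of 280.75 and a highest of 354.1 in controls. Control 10 alone held the lowest value, and the high-level array was the lowest of its group in all 4 exposed groups. Log2 fold changes were -0.16 ± 0.25 after 10 halothane and -0.06 ± 0.25 after 10 isoflurane exposures. After 5 exposures Fdft1 had 275.9, 338.2 and 245.2 with halothane (0.14 ± 0.25) and 277.7, 330.7 and 276.5 with isoflurane (0.19 ± 0.25). Its other 3 probe sets ranged from -0.35 to -0.05 after 10 halothane exposures.

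Sqle, which encodes squalene epoxidase, an oxygen-dependent and rate-controlling step, had signals of 212.8, 221.2 and 201.3 after 10 halothane exposures and 251, 253.7 and 263.6 after 10 isoflurane exposures, against a lowest of 196.4, a median of 233.45 and a highest of 252.7 in controls. The halothane arrays all lay below the control median and the isoflurane arrays all above it. Log2 fold changes against control were -0.10 ± 0.09 with halothane and 0.17 ± 0.09 with isoflurane. Halothane and isoflurane at 10 exposures differed by -0.27 ± 0.12 on the log2 scale (95% interval -0.52 to -0.03), unadjusted p 0.031, adjusted p 1 by limma, where 0 of 17 members and 0% of all probe sets were called. After 5 exposures Sqle had 260.6, 251.7 and 198.3 with halothane (0.05 ± 0.09) and 226.1, 240.8 and 253.2 with isoflurane (0.08 ± 0.09).

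Msmo1 encodes the methylsterol monooxygenase that starts removal of the C4 methyl groups. It had signals of 562.4, 522.5 and 489 after 10 halothane exposures and 704.4, 614 and 570 after 10 isoflurane exposures, against a lowest of 493, a median of 572.85 and a highest of 643.9 in controls. No array of the halothane group was as bright as any of the isoflurane group. Log2 fold changes against control were -0.11 ± 0.10 with halothane and 0.15 ± 0.10 with isoflurane, and the agents differed by -0.26 ± 0.12, unadjusted p 0.042, adjusted p 1 by limma. The second Msmo1 probe set had -0.09 ± 0.23 and 0.07 ± 0.23 against control. After 5 exposures Msmo1 had 594, 614.5 and 529.4 with halothane (0.04 ± 0.10) and 515.8, 617.1 and 529.6 with isoflurane (-0.03 ± 0.10).

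Dhcr7, the reductase that makes cholesterol from 7-dehydrocholesterol, had signals of 160.9, 193.6 and 123.9 after 10 halothane and 190.7, 175.4 and 136.9 after 10 isoflurane exposures, against a lowest of 144.6, a median of 187.05 and a highest of 228.2 in controls. In each group only the high-level array lay below the controls. Log2 fold changes were -0.26 ± 0.14 and -0.18 ± 0.14, and the second probe set gave -0.21 ± 0.17 with halothane and -0.39 ± 0.17 with isoflurane. That isoflurane value had an unadjusted p of 0.029 and an adjusted p of 0.49 by limma. After 5 exposures Dhcr7 had 202.6, 219.4 and 187.2 with halothane (0.11 ± 0.14) and 193.2, 205.7 and 144.6 with isoflurane (-0.07 ± 0.14).

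Fasn, the enzyme that builds palmitate, had the lowest p of the members after 10 halothane exposures. Its signals there were 247.8, 266.9 and 285.9, against a lowest of 271.5, a median of 379.95 and a highest of 518.7 in controls. The low-level arrays lay below every control and the high-level array inside their range. The log2 fold change was -0.51 ± 0.19 (95% interval -0.89 to -0.12), unadjusted p 0.012, adjusted p 0.50 by limma, and the second Fasn probe set gave -0.31 ± 0.16. After 10 isoflurane exposures Fasn had 228, 303.5 and 364.4, a log2 fold change of -0.37 ± 0.19. After 5 exposures it had 225.3, 345.5 and 409 with halothane (-0.26 ± 0.19) and 305.2, 378.1 and 449.5 with isoflurane (-0.02 ± 0.19). Over the mean of the exposed groups it stood at -0.29 ± 0.12 (adjusted p = 0.49). With the replicate number as a block Fasn was at -0.88 after 10 halothane exposures (adjusted p = 0.074 by limma). In the exposed mean it was at -0.66 (adjusted p = 0.061 by limma), and neither was called. Replicate numbers above 3 occur only among controls, so this block set the exposed groups against controls 1 to 3 alone. Those were the brightest Fasn controls, at 0.46, 0.45 and 0.21 above the control mean on the log2 scale. The other controls reached at most 0.15.

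**Figure D2:**
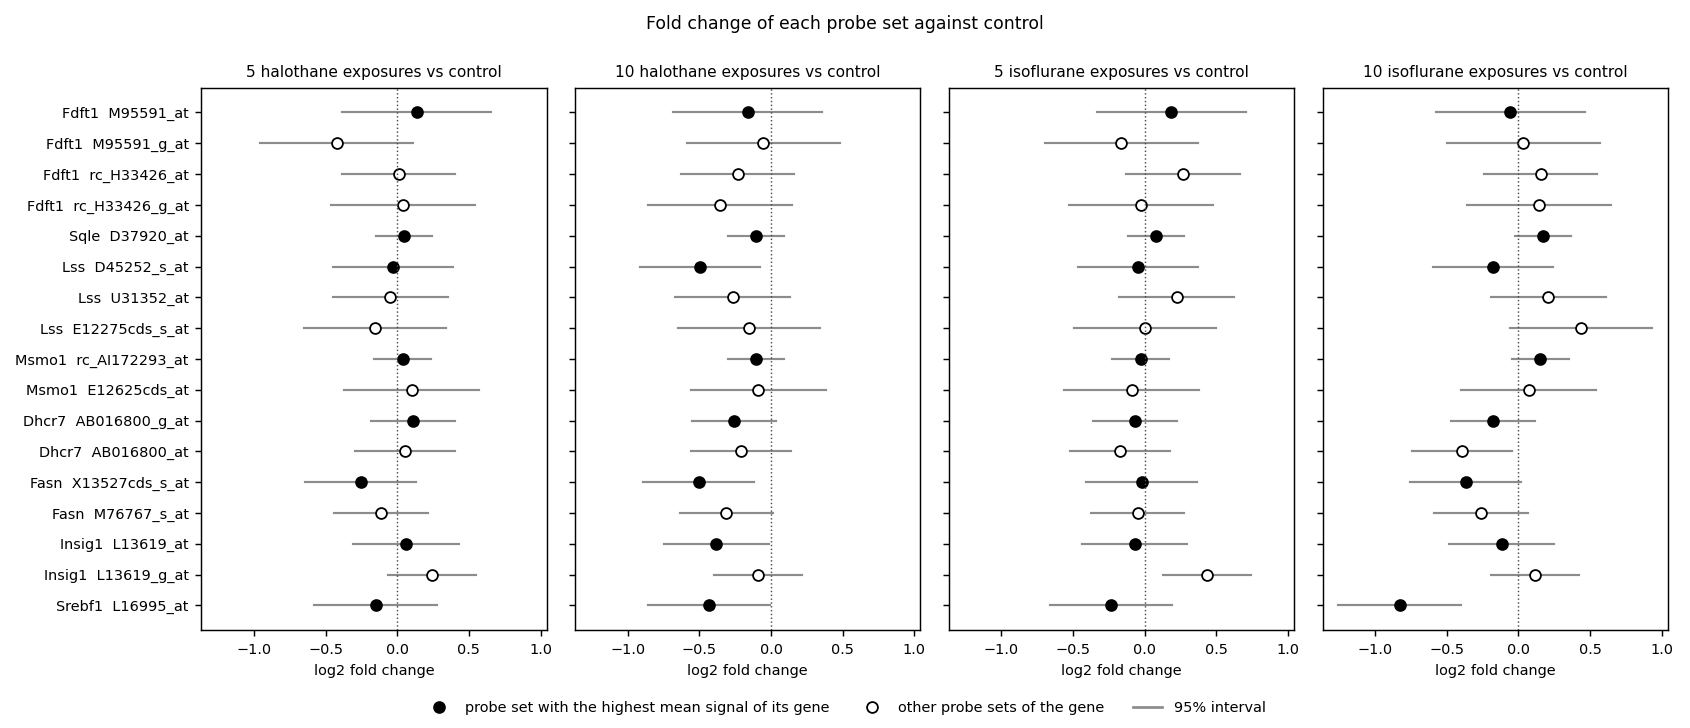
Log2 fold change against control of each of the 17 probe sets with its 95% interval, one panel per exposed group; filled points are the brightest probe set of a gene and open points its others. After 10 halothane exposures all 17 points lie left of 0, and none of the 17 passed the adjusted threshold in any panel. The point of the dim Lss probe set, at or under the floor on all 3 of those arrays, could not lie right of 0.

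Described together, all 8 genes had a negative log2 fold change after 10 halothane exposures, where 56.2% of all tested probe sets did, and their median was -0.32, beside -0.03 over all tested. Fdft1 there turned to 0.056 without replicate 3 of that group, a high-level array, while controls of both levels were kept. Its value stayed negative among low-level arrays alone (-0.11) and when spike-in level was blocked (-0.20). The share of negative genes was 3 of 8 after 5 halothane exposures (51.8% of all tested), 6 of 8 after 5 isoflurane exposures (48.4%) and 6 of 8 after 10 isoflurane exposures (50.5%), with medians of 0.04, -0.04 and -0.15. Over all 17 probe sets, 8 of 17 were negative after 10 isoflurane exposures, with a median of 0.03. The choice of probe set therefore decides which sign prevails there. After 10 halothane exposures 17 of 17 were negative, with a median of -0.23. Both counts include the dim Lss probe set. All 3 of its 10-exposure halothane arrays were at or under the floor, so its value there could not be positive. Its positive value after 10 isoflurane exposures rested on 1 array above the floor. Over the mean of the exposed groups 5 of 8 genes were negative (53.1%). Between 10 and 5 halothane exposures all 8 genes were negative (52.3% of all tested), with 0 of 17 probe sets called beside 0.0135% of all. The lowest p in that comparison belonged to Dhcr7 (-0.37 ± 0.18) and Insig1 (-0.44 ± 0.22), with adjusted p of 1 by limma. Between the agents 3 of 8 genes were negative at 5 exposures (51.6% of all tested) and 7 of 8 at 10 exposures (53.1%), and between 10 and 5 isoflurane exposures 6 of 8 were (50.7%). At 5 exposures the agents differed most by p in Fasn (-0.23 ± 0.24) and Dhcr7 (0.18 ± 0.18), and between 10 and 5 isoflurane exposures Msmo1 followed Srebf1 at 0.18 ± 0.12. These genes share arrays, so their common sign is no count of independent events.

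Along the order of group means, most neighbours did not differ beyond the larger of their SDs. Of 32 neighbouring gaps, 3 did: 10 isoflurane above 10 halothane exposures for Lss, 10 above 5 isoflurane exposures for Sqle, and 5 isoflurane above 10 halothane exposures for Srebf1. By the brightest probe sets, halothane at 10 exposures had the lowest mean for every gene except Srebf1, whose lowest mean was after 10 isoflurane exposures. The second probe sets of Dhcr7 and Msmo1 and one other of Fdft1 had their lowest mean in another exposed group.

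Several members differed with the spike-in level. With groups held constant, 9 of 17 member probe sets were called between arrays of high and low level, beside 20% of all tested. Called and lower on the high-level arrays were 8 of 17, beside 12.3% of all tested (909 of 7389). Lss averaged 131 ± 28.3 in the 5 high-level controls and 183 ± 32.6 in the 7 low-level controls (SD), a log2 difference of -0.42 ± 0.10 over all groups, adjusted p 0.0041 by limma. Dhcr7 had -0.30 ± 0.07 (adjusted p = 0.0037) and Fdft1 -0.42 ± 0.14 (adjusted p = 0.035). The brighter Fasn probe set went the other way, at 0.38 ± 0.09 (adjusted p = 0.0068), while the second Fasn probe set had -0.36 ± 0.07 (adjusted p = 0.0011). Srebf1 had 0.31 ± 0.12 and was not called (adjusted p = 0.077). No label explains the level, and its part in the exposure results was not tested beyond the blocked values above.

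**Figure D3:**
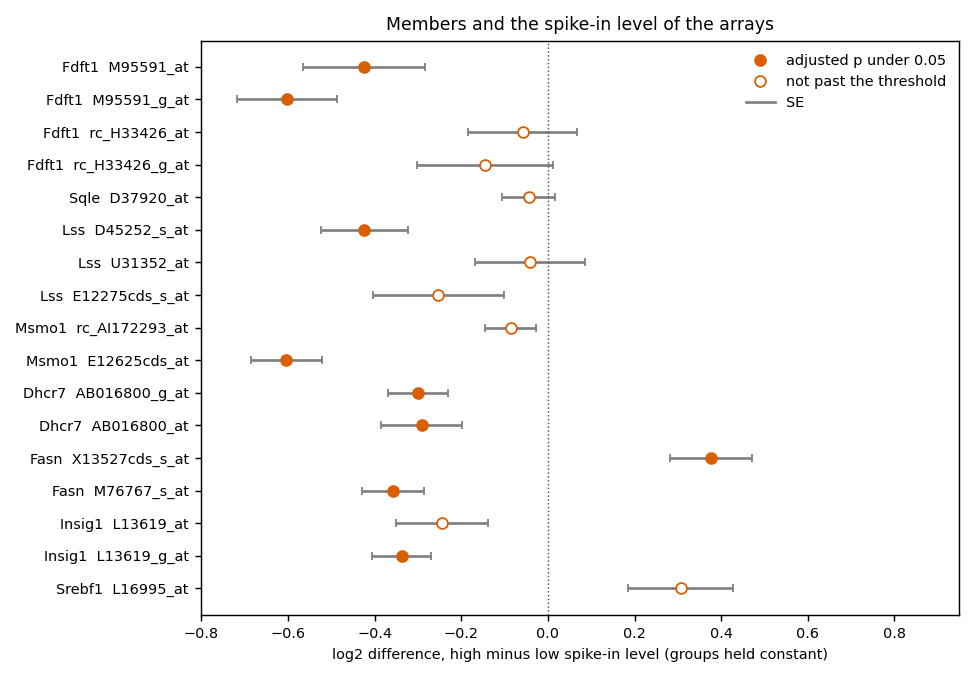
Log2 difference between arrays of high and low spike-in level, with SE, for each of the 17 probe sets and with the groups held constant; filled points have an adjusted p under 0.05. Of the 9 filled points 8 lie left of 0, and the pair of Fasn probe sets lie on opposite sides.

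**Figure D4:**
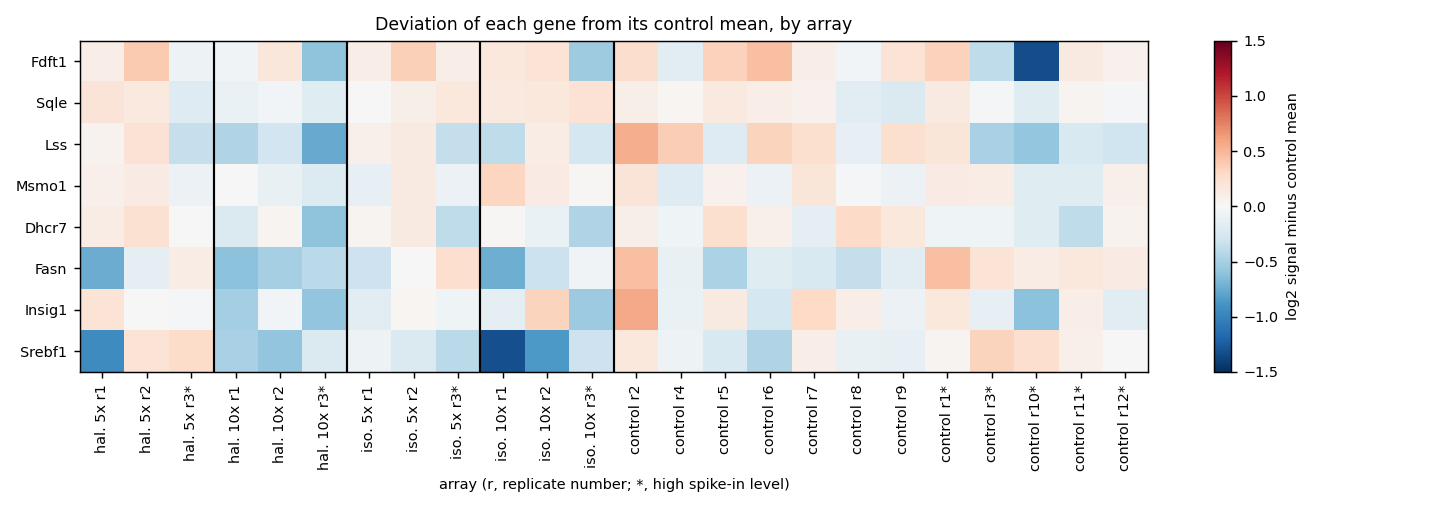
Log2 signal of each gene minus its control mean (colour, from -1.5 to 1.5) on each of the 24 arrays, in group order, with high-level arrays starred. The deepest values are Srebf1 in replicate 1 of 10 isoflurane exposures and Fdft1 in control 10.

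Correlations between members were taken on deviations from group means. Over all 24 arrays, 3 of 28 pairs passed by Pearson's r: Lss with Fdft1 (0.63), Fdft1 with Insig1 (0.67) and Srebf1 with Fasn (0.67), each with an adjusted permutation p of 0.041. By Spearman's rho none passed, the lowest adjusted permutation p being 0.052. These values pool arrays of both spike-in levels. Without the 2 arrays farthest from the median of the first gene, r was 0.45, 0.40 and 0.57 in the same order of pairs. The same pairs had 0.15, 0.09 and 0.66 on the 15 low-level arrays. On the 15 low-level arrays, an alternative chosen after seeing the data, another pair was the 1 of 28 that passed: Lss and Fasn, with Pearson r = 0.82 (permutation p = 9.0e-05, adjusted 0.0025) and Spearman rho = 0.86 (permutation p = 2.8e-04, adjusted 0.0078), and r = 0.81 without the 2 arrays farthest from the median of Lss. Over all 24 arrays Lss and Fasn had r = -0.09 (adjusted permutation p = 0.82) and rho = -0.20, so their relation rests on how the level is handled. With group and level means removed on 20 arrays, the pair had r = 0.77 (permutation p = 5.0e-05, adjusted 0.0014). Those arrays are the same 15 low-level arrays and the 5 high-level controls, so this value is no separate support. The high level held too few arrays per group for a value of its own. Over the 6001 other named probe sets, those most like the mean standardized level of the members across 24 arrays were Akt1 (Pearson r = 0.81), Cnp (0.76), Smarca4 (0.75), Ptprs (0.73) and Cdc42 (0.73). These likenesses share the spike-in level, and over the 15 low-level arrays the values were 0.69, 0.57, 0.54, 0.51 and 0.57.

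Other genes of the pathway gave no call either. Of 15 further sterol enzymes listed, 9 had a named probe set, and after 10 halothane exposures 8 of the 9 were negative, with a median of -0.16. Acat2, the thiolase that makes acetoacetyl-CoA, averaged 261 ± 77.6 after 10 halothane exposures and 337 ± 53.4 in controls (SD, n = 3 and 12), a log2 fold change of -0.39 ± 0.14 with an adjusted p of 0.48 by limma. Mvd, which makes isopentenyl diphosphate, stood at -0.37 ± 0.20, Cyp51, the lanosterol demethylase, at -0.25 ± 0.19 and Fdps, the farnesyl diphosphate synthase, at -0.23 ± 0.17. After 10 isoflurane exposures 6 of 9 were negative, with a median of -0.05, and the lowest p was that of Nsdhl, a C4 demethylation enzyme, at 0.46 ± 0.23.

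Of 17 further fatty acid genes listed 9 had a probe set, with 6 of 9 negative after 10 halothane and 5 of 9 after 10 isoflurane exposures. Their median was -0.033 after 10 halothane exposures, the same as over all tested, and -0.056 after 10 isoflurane exposures, beside -0.003 over all tested. Slc25a1, the citrate carrier that supplies cytosolic acetyl-CoA, stood at -0.33 ± 0.15 after 10 halothane exposures (adjusted p = 0.65), and Scd, a stearoyl-CoA desaturase, at -0.33 ± 0.19. Of 11 sensing and uptake genes 3 had a probe set, with 2 of 3 negative after 10 halothane and 1 of 3 after 10 isoflurane exposures. Scarb1, a lipoprotein receptor, stood at -0.28 ± 0.14 after 10 exposures of either agent. Of 12 efflux, storage and turnover genes 9 had a probe set. After 10 halothane exposures 5 of these 9 were negative and 4 positive, with a median of -0.015, beside -0.033 over all tested. After 10 isoflurane exposures 6 of 9 were negative, with a median of -0.10. Nr1h3, the oxysterol receptor LXR alpha, stood at -0.48 ± 0.17 after 10 halothane exposures (adjusted p = 0.47 by limma).

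Cell type markers were summed beside the members. All 8 oligodendrocyte and myelin markers measured, of 12 listed, were negative after 10 halothane exposures, with a median of -0.23, and their summed signal ran from 8344 to 11475, against 8868 to 12916 in controls. After 10 isoflurane exposures 5 of 8 were negative and the sum ran from 10003 to 12483. The 4 blood markers measured, of 7 listed, had medians of -0.70 after 10 halothane and -0.63 after 10 isoflurane exposures, with sums of 437 to 470 and 388 to 659, against 543 to 996 in controls. Sums of the 6 choroid plexus and ependyma markers measured were 4336 to 6909 after 10 halothane and 4480 to 5781 after 10 isoflurane exposures, against 3086 to 4990 in controls, and Kcnj13 among them was at the floor on all those arrays. Astrocyte, neuron, microglia and endothelial markers were detected, with control sums of 9261 to 12232, 4599 to 6618, 244 to 356 and 541 to 842. However, Slc17a7, a marker of excitatory neurons, was at the floor on every array. The microglia markers Csf1r and Itgam and the endothelial marker Abcb1a were at the floor on all arrays of some exposed groups. The medians of these lists after 10 halothane exposures were 0.08, -0.01, 0.06 and -0.09, and after 10 isoflurane exposures 0.05, 0.09, 0.05 and 0.07. None of these markers was called. The part of cell composition in the members' values was not tested.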

How the data were processed

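Whole-brain total RNA from 24 samples was measured on single-colour arrays. The deposited values are 1 linear intensity per probe set and array. The sources used here name no software for summarising or scaling the probes. Trimmed means (2% off each end) were 150.1 to 150.2, and the authors' deposited scaling was kept. Groups were taken from the labels. Of 8799 probe sets, 59 control probe sets were left out, values under 16.5 (the 25th percentile) were set to it, log2 was taken, and 7389 probe sets above it on at least 3 arrays were tested, so fold changes of dim genes are understated. A two-sided limma test (version 3.58.1, R 4.3.3, moderated with an intensity trend) fitted 5 groups on 24 arrays for 9 comparisons. Gene names come from the platform annotation, and promoter windows from RefSeq on GRCr8. Correlations used 100000 permutations within groups (Python 3.11.15, numpy 2.4.6). All member probe sets are named in comparisons with control, and the 2 members with the lowest p between exposed groups; from each other list, up to 4 genes with the lowest p after 10 exposures. The members and lists were chosen with earlier results of these data known. Data were simulated for 10 halothane exposures against control over 7389 probe sets. There 87 of 100 changes of 1 log2 unit and 34 of 100 of 0.5 were recovered, with 9 false calls. Changes were placed only in probe sets well above the floor, with noise independent between probe sets and no shared spike-in level. That many true changes loosen the adjusted threshold, so recovery in the measured comparisons may be lower. For arrays, their number limits the precision. Alternatives covered normalization, floor, filter, trend, weights, samples, blocks and probe set; those on the spike-in level within correlations were chosen after seeing the data.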

Additional observations from a re-analysis of the deposited data

Results flagged for a closer look

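Sqle and Msmo1 are listed because the agents lay on opposite sides of control after 10 exposures: all 3 halothane arrays were below the control mean and all 3 isoflurane arrays above it. The difference itself was tested with limma. Sqle differed by -0.275 on the log2 scale between halothane and isoflurane at 10 exposures (95% interval -0.52 to -0.03), and Msmo1 by -0.26 (95% interval -0.51 to -0.01), each with an adjusted p of 1, so neither passed. The search for such a pattern covered 17 probe sets at 5 and at 10 exposures, and its share over all probe sets was not computed. The intervals use the same values that picked these genes, so they are no independent support. Groups of 3 and of 12 arrays were not searched for single outlying arrays.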

How the results depend on the processing

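No member probe set was called in any comparison under the main setting or any alternative tried. The lowest adjusted p of a member was 0.061 by limma, for Fasn in the exposed mean with a replicate block. Against control that block uses controls 1 to 3 alone, since higher replicate numbers occur only among controls. Those were the brightest controls for Fasn. Over all probe sets, calls ran from 0 to 33 across settings other than leaving out an array. Of 616 fold changes recomputed under the other settings 600 kept their sign, as did 1120 of 1152 with 1 array left out and 28 of 45 taken from another probe set of the gene; the cause was not tested. For a gene, "exposed mean" averages the 4 exposed groups and sets them against control, and values are log2 fold changes. Of same-numbered pairs of arrays, 16 of 18 between exposed groups correlated above 0.1, and 20 of 30 with control included, from -0.18 to 0.52. Every pair did in 4 of 6 pairings of exposed groups. Among them were the agents at 10 exposures and 10 against 5 isoflurane exposures, where a replicate block left 0 members called. Controls gave no such pairing. The high-level array was replicate 3 in every exposed group, so deviations from group means share the spike-in level across groups. Same-numbered correlations therefore cannot tell pairing by replicate from the level, and differently numbered pairs were not correlated. With a replicate block, signs turned for Sqle (-0.017), Msmo1 (-0.11) and Insig1 (-0.14) after 5 halothane exposures and for Sqle (-0.017), Msmo1 (-0.13) and Fdft1 (-0.050) in the exposed mean; Fasn was -0.63 after 5 halothane, -0.88 after 10 halothane and -0.74 after 10 isoflurane exposures and -0.66 in the exposed mean, none called. Array weights gave Lss 0.0014 after 5 halothane exposures, and quantile normalization gave Msmo1 -6.2e-05 in the exposed mean. Without controls 10 to 12, Insig1 was -0.015 after 5 halothane and Fasn 0.023 after 5 isoflurane exposures, with Msmo1 at -0.019 and Fdft1 at -0.099 in the exposed mean. The spike-in level as a block gave Fasn 0.011 after 5 isoflurane exposures and Fdft1 -0.0096 in the exposed mean, and low-level arrays alone gave Fdft1 0.013 and Insig1 0.0068 after 10 isoflurane exposures.

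Other probe sets of a gene also turned signs. For Fdft1 one gave -0.42 after 5 halothane, -0.16 after 5 isoflurane and 0.034 after 10 isoflurane exposures and -0.15 in the exposed mean, another 0.15 after 10 isoflurane exposures, and the last -0.028 after 5 isoflurane, 0.15 after 10 isoflurane exposures and -0.049 in the exposed mean. For Lss one gave 0.22 after 5 and 0.21 after 10 isoflurane exposures and 0.029 in the exposed mean, and the dim one, mostly at or under the floor in exposed groups, 0.44 after 10 isoflurane exposures and 0.033 in the exposed mean. For Insig1 the second gave 0.44 after 5 and 0.12 after 10 isoflurane exposures and 0.18 in the exposed mean, and for Msmo1 it gave -0.0014 in the exposed mean.

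With 1 array left out at a time, values that changed sign ranged after 5 halothane exposures from -0.15 to 0.13 for Lss, -0.026 to 0.17 for Sqle, -0.0076 to 0.10 for Msmo1, -0.010 to 0.11 for Insig1 and -0.37 to 0.25 for Srebf1. After 5 isoflurane exposures they ranged from -0.14 to 0.11 for Lss, -0.11 to 0.020 for Msmo1, -0.17 to 0.087 for Dhcr7 and -0.16 to 0.12 for Fasn. Fdft1 ranged from -0.33 to 0.056 after 10 halothane and from -0.18 to 0.18 after 10 isoflurane exposures, and Insig1 from -0.34 to 0.099 after 10 isoflurane exposures. In the exposed mean Msmo1 ranged from -0.0074 to 0.031 and Fdft1 from -0.095 to 0.085, and halothane against isoflurane at 5 exposures ranged from -0.42 to 0.011 for Fasn. Of 33 that kept their sign throughout, 21 moved over 1.5 times, none of them called, such as Fasn after 5 halothane (-0.44 to -0.0090) and 10 isoflurane exposures (-0.52 to -0.19), Dhcr7 after 10 halothane exposures (-0.41 to -0.089) and Srebf1 between 10 and 5 isoflurane exposures (-0.85 to -0.35).

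The number of correlated pairs of members was least stable. Over all 24 arrays 3 of 28 pairs passed by Pearson's r with a permutation test and 0 by Spearman's rho, 1 passed on low-level arrays, 1 with group and level means removed and 9 with group means kept, and leaving out 1 array gave 0 to 7; it was 0 without control 3, control 10, replicate 1 or 3 of 10 halothane, replicate 3 of 5 halothane or replicate 2 of 10 isoflurane exposures, 1 without control 5 or replicate 1 or 3 of 10 isoflurane exposures, and 7 without replicate 2 of 5 halothane exposures.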
